A study of Mus musculus with 6 samples.

Results

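The 56 genes described here encode proteins that take a cell from the G2 phase through mitosis and cytokinesis. They were chosen by name, as listed regulators of mitotic entry, kinesins, spindle checkpoint, centromere and cytokinesis genes, with earlier results of these data known. All 56 were found among the 25690 gene symbols of the tables and all 56 were among the 15474 genes with enough counts for a test. The lowest estimated count of any of them in any library was 25. They were sorted by role into 8 mitotic entry kinases, cyclins and phosphatases, 2 transcription factors, 5 spindle checkpoint proteins, 4 subunits of the chromosomal passenger complex, 8 centromere and kinetochore proteins, 10 kinesins, 4 spindle microtubule proteins, 4 cytokinesis proteins, 7 proteins of chromosome structure and 4 proteins of anaphase and mitotic exit.

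Most of these genes are transcribed late in the cell cycle and are silent in resting cells. The DREAM complex represses them in quiescence through its MuvB core, and MuvB joined by B-Myb and FoxM1 activates them as cells near mitosis. Their summed mRNA level in a tissue is therefore commonly read as a sign of how much of it is dividing. In the NK cell lineage, dividing cells are found mainly at the immature CD27SP stage in the BM, before cells gain CD11b and become quiescent.

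The data are RNA-seq libraries of CD27SP NK cells, sorted from the BM as NK1.1+, CD27+, CD11b- and CD3/19- cells. There were 3 control samples of the genotype *Ncr1cre Myc* wt/wt and 3 deleted samples of the genotype *Ncr1cre Myc* fl/fl, numbered 1, 2 and 4 in each genotype. Both genotypes carry the Cre recombinase in the *Ncr1* locus, no treatment was given, and the study's mice were C57BL/6, matched for sex and age and 6 to 14 weeks old. In *Ncr1cre Myc* fl/fl mice both *Myc* alleles are floxed, and Cre removes them once a cell expresses NKp46, the product of *Ncr1*, so that cells sorted early in NKp46 expression may still carry *Myc*. The labels do not say how many mice a sample came from, so the p-values below measure the spread between these samples. Values are given below for libraries 1, 2 and 4 of each genotype in that order, as CPM, the counts per Mio of library total after TMM normalization. The CPM of single transcripts were not normalized by TMM.

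Total estimated counts were 8101219 in *Myc* wt/wt library 1 and 54550907 to 64962491 in the other 5 libraries, so that library 1 gave the least precise values of low genes. *Myc* itself was measured at 200.5, 183 and 164 CPM in *Myc* wt/wt and 61.5, 64.6 and 76.5 CPM in *Myc* fl/fl, a log2 fold change of −1.44 ± 0.15 (SE) with an adjusted p of 0.00189 in edgeR. Every *Myc* fl/fl library was below every *Myc* wt/wt library, and 37% of the control mean remained. Leaving out the libraries numbered 1 gave a log2 fold change of −1.30 with an adjusted p of 0.0105. Of the markers of the sorted cells, *Ncr1* was at 889.9 ± 151 and 895 ± 89.2 CPM (SD, n = 3 each) in *Myc* wt/wt and *Myc* fl/fl cells, *Cd27* at 237 ± 13.7 and 250.2 ± 24.2 CPM, and *Itgam*, which encodes the CD11b that was gated out, at 41.6 ± 6.04 and 43.6 ± 2.82 CPM.

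The summed level of the mitotic genes was lower in each *Myc* fl/fl library than in any control library. Summed over all 56, they took 6542, 5650.0 and 5373 CPM in *Myc* wt/wt and 3534, 2989 and 4048 CPM in *Myc* fl/fl libraries. The means were 5855 ± 611 and 3524 ± 529 CPM (SD, n = 3 each), so that the *Myc* fl/fl libraries held 60.2% of the control level and the groups did not overlap. The median log2 fold change of the 56 genes was −0.71, whereas that of all genes tested was 0.014. Since whole populations were sequenced, fewer dividing cells and less mRNA in each dividing cell cannot be told apart.

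In edgeR's quasi-likelihood test with the replicate number as a block, 9 of the 56 genes fell past the threshold, set at 0.01 for the adjusted p and at 0.5 for the size of the log2 fold change, and none rose. Of all genes tested, 0.872% were called lower and 1.28% were called higher in this way. The 9 genes were *Mki67*, *Knl1*, *Nusap1*, *Birc5*, *Cenpf*, *Nuf2*, *Ccnb2*, *Ncapg* and *Cenpe*. With a limit of 0.05 on the adjusted p and none on the fold, 35 of the 56 were lower, against 3.38% of all genes. Unadjusted p-values below 0.05 were found for 53 lower and 1 higher gene, against 10.2% and 12.4% of all genes. DESeq2 called 36 of the 56 lower (3.54% of all genes) and limma-trend 7 (0.64%), without *Ncapg* and *Cenpe*. Without the replicate block 12 were called (1.19%), and *Cenpf* and *Ncapg* were not among them (adjusted p = 0.0102 and 0.0112, edgeR). With library size only 1 was called, *Mki67* (0.162%), and with offsets from effective lengths 0 (0.0517%), with 51 of the 56 lower at an unadjusted p below 0.05 in the latter.

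The fitted log2 fold change was below 0 for 55 of the 56 genes, against 48.5% of all genes. In 50 of them every *Myc* fl/fl library was below every *Myc* wt/wt library, which held for 15.1% of all genes, and in 1 every *Myc* fl/fl library was above, which held for 16.2%. The size of the differences fell in a narrow band. Apart from *Kifc1* at −1.59 and *Pttg1* at 0.48, the log2 fold changes of the 56 lay between −1.26 and −0.36.

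The count of 9 also depended on which libraries were used. Without the libraries numbered 1, 0 of the 56 were called lower (0.0636% of all genes), and without those numbered 2, also 0 (0.3%). Without the libraries numbered 4 there were 18 (0.735%). At an adjusted p below 0.05, the numbers lower in these 3 fits were 11, 14 and 41 of 56, against 1.69%, 1.89% and 2.61% of all genes. When single libraries were left out and the block was dropped, 7 were called without *Myc* fl/fl library 4 (0.443%) and 0 without any other library. In those fits 0.814, 0.252 and 0.133% of all genes were called lower without *Myc* wt/wt library 1, 2 and 4, and 0.0694 and 0.0378% without *Myc* fl/fl library 1 and 2. At an adjusted p below 0.05 and no fold limit, 17 to 34 of the 56 were lower in these 5 fits, against 1.59 to 3.87% of all genes. The log2 fold changes stayed below 0 for 55 genes in each of these fits.

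**Figure D1:**
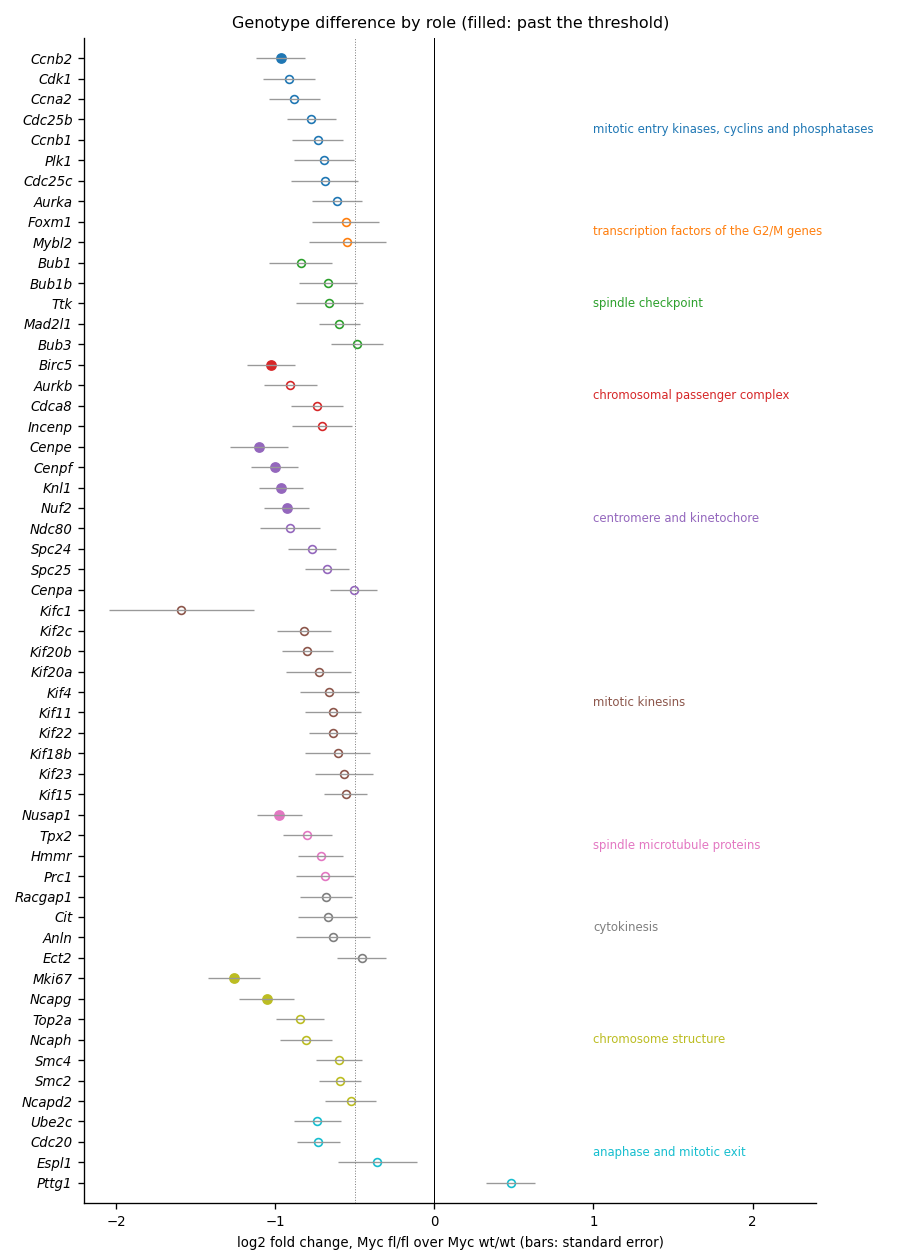
Fitted log2 fold change of each of the 56 genes (x axis, *Myc* fl/fl over *Myc* wt/wt, with its standard error) in order of role (colour); filled points are the 9 genes past the threshold and the dotted line marks the fold limit of −0.5. All points but that of *Pttg1* lie left of 0, and the widest error bar is that of *Kifc1*, the gene with the lowest level.

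Entry into mitosis is driven by Cdk1 with its cyclin partners, released by the Cdc25 phosphatases and assisted by the Polo and Aurora kinases. All 8 genes of this role had log2 fold changes below 0, with a median of −0.75. *Ccnb2* (cyclin B2, GRCm38 chromosome 9, 70407692 to 70421547) was the 1 that passed the threshold. It was measured at 171, 138 and 137 CPM in *Myc* wt/wt and 78.5, 61.2 and 90.4 CPM in *Myc* fl/fl, a log2 fold change of −0.96 ± 0.15 (SE) with an adjusted p of 0.0072 in edgeR. The highest *Myc* fl/fl value lay well below the lowest *Myc* wt/wt value. *Cdk1* (chromosome 10, 69335146 to 69352938), the kinase itself, was at 113, 100.2 and 89.5 CPM in *Myc* wt/wt and 52.8, 45.2 and 63.2 CPM in *Myc* fl/fl, a log2 fold change of −0.91 ± 0.16 (SE) with an adjusted p of 0.0105 in edgeR. *Ccna2*, cyclin A2, was at 259, 224 and 205 CPM in *Myc* wt/wt and 122, 106 and 147 CPM in *Myc* fl/fl, a log2 fold change of −0.88 ± 0.16 (SE) with an adjusted p of 0.0115 in edgeR. Neither met the limit of 0.01 in this fit, although their groups did not overlap either, and both met it without the replicate block, with adjusted p-values of 0.00753 and 0.00796. The phosphatase gene *Cdc25b* had a log2 fold change of −0.77 (adjusted p = 0.0167) and *Ccnb1*, cyclin B1, a log2 fold change of −0.73 (adjusted p = 0.0248). *Aurka* (Aurora A) also had an adjusted p below 0.05, with a log2 fold change of −0.61 (adjusted p = 0.0464). *Plk1* (Polo-like kinase, log2 fold change −0.69, adjusted p = 0.0527) and *Cdc25c* (log2 fold change −0.69, adjusted p = 0.0806) did not. In all 8 the groups did not overlap.

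*Foxm1* and *Mybl2* encode FoxM1 and B-Myb, the transcription factors that switch these genes on. *Mybl2*, the more abundant by TPM, was at 36.6, 35.2 and 25.4 CPM in *Myc* wt/wt and 20.4, 17.1 and 30.2 CPM in *Myc* fl/fl, a log2 fold change of −0.55 ± 0.24 (SE) with an adjusted p of 0.223 in edgeR. Its groups overlapped, since *Myc* fl/fl library 4 was above *Myc* wt/wt library 4. *Foxm1* was at 38.1, 47.9 and 34.3 CPM in *Myc* wt/wt and 28.3, 21.5 and 32.2 CPM in *Myc* fl/fl, a log2 fold change of −0.56 ± 0.21 (SE) with an adjusted p of 0.144 in edgeR. Its groups did not overlap, but by a small margin. Neither had an adjusted p below 0.05 in this fit.

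The spindle checkpoint holds back anaphase until every chromosome is attached. The log2 fold changes of its 5 genes were all below 0, with a median of −0.66, and none passed the threshold. The checkpoint scaffold *Bub3* had the highest TPM of all 56 genes, 275 ± 67.7 in *Myc* wt/wt cells (SD, n = 3), and was at 394, 262 and 261 CPM in *Myc* wt/wt and 210.1, 222 and 210.0 CPM in *Myc* fl/fl, a log2 fold change of −0.49 ± 0.16 (SE) with an adjusted p of 0.101 in edgeR. *Myc* wt/wt library 1 was far above the other 5 libraries for this gene. *Mad2l1*, whose protein Mad2 binds the activator Cdc20, was even within the groups, with 109.9, 102 and 107 CPM in *Myc* wt/wt and 68.9, 68.2 and 74.4 CPM in *Myc* fl/fl (log2 fold change −0.60, adjusted p = 0.0244). The kinase gene *Bub1* had a log2 fold change of −0.84 (adjusted p = 0.0342) at a low level, 17 ± 1.52 CPM in *Myc* wt/wt cells (SD, n = 3). *Bub1b*, which encodes BubR1, had a log2 fold change of −0.67 (adjusted p = 0.0543), and *Ttk*, the Mps1 kinase, had a log2 fold change of −0.66 (adjusted p = 0.0886). The groups overlapped for *Ttk*.

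The chromosomal passenger complex corrects faulty attachments and later directs cytokinesis. Its survivin subunit gene *Birc5* (chromosome 11, 117849251 to 117855743) fell past the threshold, with 158, 135 and 134 CPM in *Myc* wt/wt and 74.5, 55.3 and 81.5 CPM in *Myc* fl/fl, a log2 fold change of −1.03 ± 0.15 (SE) with an adjusted p of 0.00541 in edgeR. This left 49.5% of the control level, with no overlap. *Aurkb*, its kinase Aurora B, was at 113, 115 and 97.4 CPM in *Myc* wt/wt and 52.9, 51.7 and 70.6 CPM in *Myc* fl/fl and reached an adjusted p of 0.0117 with a log2 fold change of −0.90. *Cdca8*, the borealin gene, had a log2 fold change of −0.74 (adjusted p = 0.0253) and the scaffold gene *Incenp* had a log2 fold change of −0.70 (adjusted p = 0.0517). All 4 were without overlap of the groups, and their median of −0.82 was the second lowest of the roles.

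The centromere and kinetochore role had the lowest median, −0.92, and 4 of its 8 genes passed the threshold. *Cenpe* (chromosome 3, 135212537 to 135273611), a kinetochore motor that carries chromosomes to the spindle equator, was at 89.9, 67.3 and 61.1 CPM in *Myc* wt/wt and 33.5, 27.2 and 41 CPM in *Myc* fl/fl, a log2 fold change of −1.10 ± 0.18 (SE) with an adjusted p of 0.00831 in edgeR. *Cenpf* (chromosome 1, 189640606 to 189688086), a protein of the outer kinetochore, was at 81.2, 64.4 and 72.9 CPM in *Myc* wt/wt and 39.4, 27.6 and 43.4 CPM in *Myc* fl/fl, a log2 fold change of −1.0 ± 0.15 (SE) with an adjusted p of 0.00564 in edgeR. *Knl1* (chromosome 2, 119047119 to 119105501), the scaffold on which checkpoint proteins gather, was at 112, 80.9 and 91.6 CPM in *Myc* wt/wt and 50.8, 42.1 and 52.4 CPM in *Myc* fl/fl, a log2 fold change of −0.96 ± 0.14 (SE) with an adjusted p of 0.00514 in edgeR. For each of the 3, the *Myc* fl/fl mean was far below the control mean, at 46.5%, 50.5% and 51% of it. *Nuf2* (chromosome 1, 169497934 to 169531464) is part of the Ndc80 complex that grips the microtubule, and was at 85.4, 70.6 and 73.5 CPM in *Myc* wt/wt and 43.4, 33.2 and 44.6 CPM in *Myc* fl/fl, a log2 fold change of −0.93 ± 0.14 (SE) with an adjusted p of 0.0060 in edgeR. The other genes of that complex, *Ndc80* (log2 fold change −0.91, adjusted p = 0.0191), *Spc24* (log2 fold change −0.77, adjusted p = 0.0163) and *Spc25* (log2 fold change −0.67, adjusted p = 0.0204), were lower with adjusted p-values between 0.01 and 0.05. *Cenpa*, the histone H3 variant that marks centromeres and the most abundant of the role by TPM, was at 91.9, 108 and 114 CPM in *Myc* wt/wt and 71.1, 60.6 and 91.9 CPM in *Myc* fl/fl, a log2 fold change of −0.51 ± 0.15 (SE) with an adjusted p of 0.0708 in edgeR. Its groups met, since *Myc* fl/fl library 4 was just above *Myc* wt/wt library 1.

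None of the 10 mitotic kinesins passed the threshold, and 4 had an adjusted p below 0.05. All 10 had log2 fold changes below 0 (median −0.65) with no overlap of the groups. *Kif22*, the chromokinesin with the highest TPM of the role, was at 112, 126 and 114 CPM in *Myc* wt/wt and 77.2, 64.2 and 86.3 CPM in *Myc* fl/fl, a log2 fold change of −0.63 ± 0.15 (SE) with an adjusted p of 0.0342 in edgeR. The other 3 with an adjusted p below 0.05 were *Kif2c*, a microtubule depolymerase (log2 fold change −0.82, adjusted p = 0.0199), *Kif20b* (log2 fold change −0.80, adjusted p = 0.018) and *Kif15* (log2 fold change −0.56, adjusted p = 0.0365). Of the remaining 6, *Kif11*, the motor that pushes the spindle poles apart, had a log2 fold change of −0.64 (adjusted p = 0.0585), *Kif4* a log2 fold change of −0.66 (adjusted p = 0.0609), *Kif20a* a log2 fold change of −0.73 (adjusted p = 0.0609), *Kif23* a log2 fold change of −0.57 (adjusted p = 0.0929) and *Kif18b* a log2 fold change of −0.61 (adjusted p = 0.107). *Kifc1*, a minus-end motor that focuses the poles, had the lowest fitted value of all 56 genes, and was at 3.25, 8.77 and 3.02 CPM in *Myc* wt/wt and 2.11, 1.13 and 1.37 CPM in *Myc* fl/fl. *Myc* wt/wt library 2 was far above the other control libraries, and the test gave a log2 fold change of −1.59 ± 0.46 (SE) with an adjusted p of 0.0651 in edgeR. Without the libraries numbered 2 its log2 fold change was −0.88 (adjusted p = 0.366), and the lowest of the 56 was then the −1.16 of *Mki67*. The mouse genome holds a close copy of this gene, *Kifc5b*, counted separately, and the estimated counts of *Kifc1* are uncertain to the extent that reads were divided between the copies.

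The 4 spindle microtubule genes all had adjusted p-values below 0.05. *Nusap1* (chromosome 2, 119618298 to 119651244), whose protein bundles spindle microtubules near chromosomes, fell past the threshold with 173, 137 and 130.2 CPM in *Myc* wt/wt and 81.1, 63.5 and 79.2 CPM in *Myc* fl/fl, a log2 fold change of −0.97 ± 0.14 (SE) with an adjusted p of 0.00537 in edgeR. *Tpx2*, which activates Aurora A on the spindle, had a log2 fold change of −0.80 (adjusted p = 0.0158), and *Hmmr* a log2 fold change of −0.71 (adjusted p = 0.017). *Prc1*, the crosslinker of the central spindle and the most abundant of the role by TPM, was at 145, 151 and 129 CPM in *Myc* wt/wt and 87.2, 68.3 and 113 CPM in *Myc* fl/fl, a log2 fold change of −0.69 ± 0.18 (SE) with an adjusted p of 0.0495 in edgeR. Its *Myc* fl/fl library 4 was nearer to the controls than the other *Myc* fl/fl libraries were.

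Of the 4 cytokinesis genes, *Racgap1*, a subunit of centralspindlin, had an adjusted p below 0.05. It was at 191, 181 and 178 CPM in *Myc* wt/wt and 118, 88.1 and 143 CPM in *Myc* fl/fl, a log2 fold change of −0.68 ± 0.16 (SE) with an adjusted p of 0.0328 in edgeR. *Cit* (citron kinase) had a log2 fold change of −0.67 (adjusted p = 0.0572), *Anln* (anillin) a log2 fold change of −0.64 (adjusted p = 0.134) and *Ect2*, the exchange factor that activates RhoA, a log2 fold change of −0.45 (adjusted p = 0.108). The groups overlapped for *Anln*.

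The genes of chromosome structure held the largest single fall past the threshold. *Mki67* (chromosome 7, 135689784 to 135716361), which encodes the proliferation marker Ki67 that coats mitotic chromosomes, was at 286, 197 and 191 CPM in *Myc* wt/wt and 101, 72.9 and 107 CPM in *Myc* fl/fl. The log2 fold change of −1.26 ± 0.16 (SE) with an adjusted p of 0.00348 in edgeR left 41.6% of the control level. The highest *Myc* fl/fl value, in library 4, was far below the lowest control value. *Ncapg* (chromosome 5, 45669919 to 45700546), a subunit of condensin I, was at 110.0, 77.8 and 73.5 CPM in *Myc* wt/wt and 43.3, 32.7 and 49.5 CPM in *Myc* fl/fl, a log2 fold change of −1.05 ± 0.17 (SE) with an adjusted p of 0.00796 in edgeR. *Top2a*, the topoisomerase that untangles sister chromatids, was the most strongly counted of the 56 genes, with 503, 368 and 381 CPM in *Myc* wt/wt and 239, 190.3 and 269 CPM in *Myc* fl/fl, a log2 fold change of −0.84 ± 0.15 (SE) with an adjusted p of 0.0111 in edgeR. It missed the limit of 0.01 by little. *Smc4*, the condensin core gene with the highest TPM of the role, was at 322, 239.8 and 288 CPM in *Myc* wt/wt and 174, 176 and 209.6 CPM in *Myc* fl/fl, a log2 fold change of −0.60 ± 0.14 (SE) with an adjusted p of 0.0358 in edgeR. Its partner *Smc2* had a log2 fold change of −0.59 (adjusted p = 0.0284), and the condensin I genes *Ncaph* and *Ncapd2* were also below 0 (log2 fold change −0.81, adjusted p = 0.0178 and log2 fold change −0.53, adjusted p = 0.0809, in this order).

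Anaphase and mitotic exit was the 1 role whose genes differed in direction. *Ube2c*, the ubiquitin-conjugating enzyme of the anaphase-promoting complex (APC/C), was at 118, 122 and 119 CPM in *Myc* wt/wt and 67.9, 62.2 and 87.4 CPM in *Myc* fl/fl, a log2 fold change of −0.74 ± 0.15 (SE) with an adjusted p of 0.0174 in edgeR. *Cdc20*, the activator of that complex, had a log2 fold change of −0.73 (adjusted p = 0.0132) with 109, 121 and 119.9 CPM in *Myc* wt/wt and 69.2, 63.6 and 78.9 CPM in *Myc* fl/fl. Both were without overlap. *Espl1*, the gene of separase, which cuts cohesin at anaphase, was at 29, 25.4 and 20.2 CPM in *Myc* wt/wt and 22.2, 12.4 and 25.5 CPM in *Myc* fl/fl with a log2 fold change of −0.36 (adjusted p = 0.452) and overlapping groups.

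*Pttg1*, the gene of securin, which holds separase inactive until anaphase, was the 1 of the 56 genes with a log2 fold change above 0. It was at 36.1, 31.6 and 38.3 CPM in *Myc* wt/wt and 49.2, 53.2 and 45.3 CPM in *Myc* fl/fl, a log2 fold change of 0.48 ± 0.16 (SE) with an adjusted p of 0.097 in edgeR. Every *Myc* fl/fl library was above every *Myc* wt/wt library, the opposite of the order in 50 other members, but the difference did not pass the test. The adjusted p was 0.0499 without the replicate block and 0.0503 in DESeq2. At the level of transcripts, the estimated counts of *Pttg1* were divided over Pttg1-202, Pttg1-203, Pttg1-204 and Pttg1-205. Pttg1-202, the largest, was at 10.4, 19.6 and 16.7 CPM in *Myc* wt/wt and 21.7, 23.2 and 18.3 CPM in *Myc* fl/fl cells. Pttg1-203 was at 19.6, 5.05 and 9.29 CPM in *Myc* wt/wt and 10.3, 7.8 and 17.9 CPM in *Myc* fl/fl cells. The other main transcript, Pttg1-205, was near 0 in *Myc* wt/wt library 1 and in *Myc* fl/fl library 4 and between 2.99 and 15 CPM in the other 4 libraries, and Pttg1-203 was highest in those 2 libraries. The split between these 2 transcripts thus varied more between libraries than the gene total did, and the total is the value to read.

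Over the 56 genes, 162 annotated transcripts had a mean of 1 CPM or more, and 151 of them were lower and 11 higher in the *Myc* fl/fl mean. The 4 *Pttg1* transcripts were among the 11. For most members called, 1 transcript carried the gene. Mki67-201 held 99.6% of the gene's counts in *Myc* wt/wt and 99.7% in *Myc* fl/fl cells, and Birc5-201 held 95.5% and 93.8%. *Knl1* and *Cenpf* were more divided, with Knl1-204 at 56% and 59.4% and Cenpf-204 at 46.9% and 46%. These splits are estimates of the authors' quantifier, without a test.

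**Figure D2:**
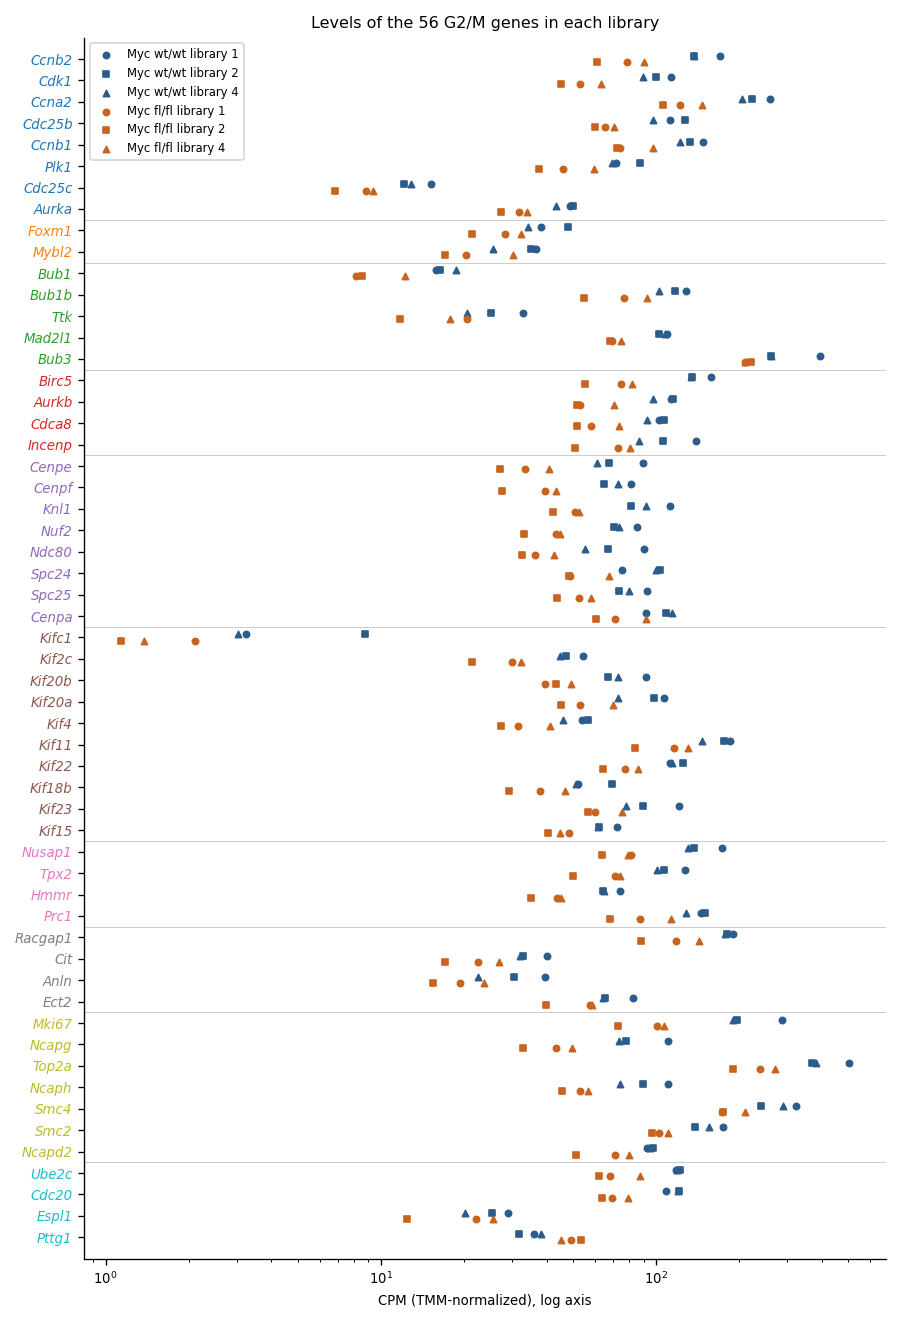
CPM of each of the 56 genes (rows, label colour by role) on a log axis in the 3 *Myc* wt/wt (blue) and 3 *Myc* fl/fl (orange) libraries; marker shape gives the library number. The 2 genotypes are apart in nearly every row, orange to the left, the order is turned for *Pttg1* in the last row, and *Kifc1* lies lowest.

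Compared per length, as TPM in *Myc* wt/wt cells, the 56 genes spanned from 4.82 ± 3.0 for *Kifc1*, 5.39 ± 0.762 for *Espl1* and 6.9 ± 0.60 for *Bub1* to 228 ± 39.6 for *Smc4*, 246 ± 13.9 for *Birc5* and 275 ± 67.7 for *Bub3* (SD, n = 3). The order of the 3 highest did not exceed their spread. Deposited TPM values rest on effective lengths, which exceeded the annotated length for 12.6 to 26.1% of the members' transcripts at 1 TPM or more. Recomputed per annotated length, an alternative chosen after the data were seen, the 3 highest were *Bub3* at 291, *Smc4* at 262 and *Birc5* at 233 TPM, the 3 lowest were the same genes, and the most abundant gene of each role was unchanged. Genes past the threshold were found over much of this range, from 12.3 ± 2.17 TPM for *Cenpe* to the 246 ± 13.9 TPM of *Birc5*.

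The libraries of each genotype were spread in the same way over most genes. *Myc* fl/fl library 2 was the lowest of all 6 libraries for 51 of the 56 genes, and *Myc* fl/fl library 4 was the highest of the *Myc* fl/fl libraries for 50. Among the controls, library 1 was the highest for 38 and library 4 the lowest for 37. The share of all estimated counts, before TMM normalization, on the 56 genes was 0.623, 0.579 and 0.543% in *Myc* wt/wt and 0.36, 0.30 and 0.402% in *Myc* fl/fl libraries. The lowest control library lay above the highest *Myc* fl/fl library in this share.

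**Figure D3:**
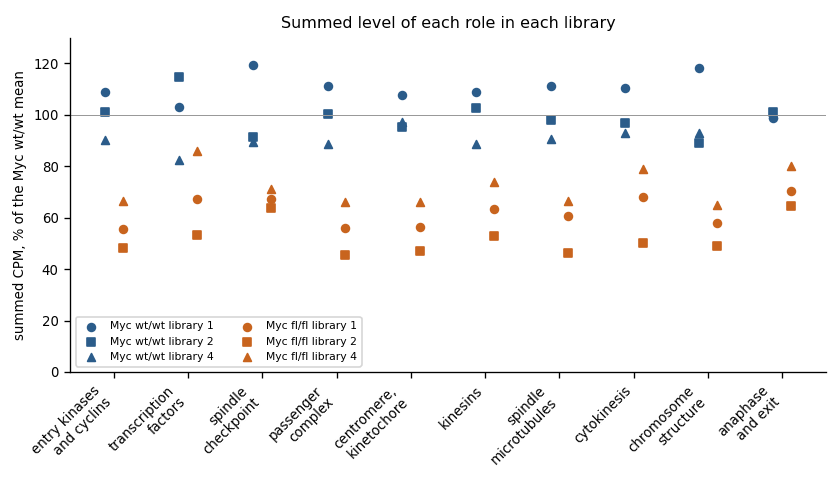
Summed CPM of each role in each library, as a percentage of the *Myc* wt/wt mean of that role (y axis, from 0); blue points are *Myc* wt/wt and orange points *Myc* fl/fl libraries, and marker shape gives the library number. In 9 roles all orange points lie below all blue points, in the 2 transcription factors *Myc* fl/fl library 4 lies above *Myc* wt/wt library 4, and within each role *Myc* fl/fl library 2 is the lowest.

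Relative to the control mean, the summed level left in *Myc* fl/fl cells ranged from 55.8% for the chromosomal passenger complex, 56.5% for the centromere and kinetochore and 56.8% for the entry kinases, cyclins and phosphatases to 67.4% for the spindle checkpoint, 68.8% for the transcription factors and 71.7% for anaphase and mitotic exit. Cyclins, kinases and phosphatases of entry summed to 938, 870.3 and 776 CPM in *Myc* wt/wt and 479, 416 and 572 CPM in *Myc* fl/fl cells. Spindle checkpoint genes summed to 682, 523 and 511 CPM and 384, 365 and 407 CPM. The differences between roles were not tested.

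Promoters of G2/M genes are known for a short element, the cell cycle genes homology region (CHR), which MuvB contacts and which often stands near the start site downstream of CCAAT boxes bound by NF-Y. The promoter windows of the members were therefore searched on both strands for the CHR, spelled TTTGAA. The same search was made for the CCAAT box, spelled as its name. The E-box, which the Myc protein binds together with Max, was searched for as CACGTG. As a further element of cell cycle genes, the E2F site was searched for with the letters TTCCCGC. RefSeq windows of 300 bases, from 250 before to 50 after the annotated start in GRCm38.p6, were at hand for 47 of the 56 genes, as 50 promoters. The 3 genes with a CHR that had the smallest p, *Mki67*, *Knl1* and *Cenpf*, are printed here, with *Ccnb2* and *Pttg1*, which were added after their sequences and values had been seen, the former for its series of CCAAT boxes and the latter for its opposite direction. Capitals mark every TTTGAA and CCAAT on either strand, so that a CCAAT box of the other strand reads ATTGG here. The windows are those at chr7:135716330-135716629, minus strand (*Mki67*), chr2:119046869-119047168, plus strand (*Knl1*), chr1:189688037-189688336, minus strand (*Cenpf*), chr9:70421505-70421804, minus strand (*Ccnb2*) and chr11:43425932-43426231, minus strand (*Pttg1*).
Mki67: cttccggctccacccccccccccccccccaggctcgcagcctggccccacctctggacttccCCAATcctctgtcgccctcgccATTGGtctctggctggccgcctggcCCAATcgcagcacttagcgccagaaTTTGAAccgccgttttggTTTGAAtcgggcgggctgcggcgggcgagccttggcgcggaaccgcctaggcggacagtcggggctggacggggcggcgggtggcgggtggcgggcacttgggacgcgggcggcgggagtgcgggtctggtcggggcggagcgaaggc
Knl1: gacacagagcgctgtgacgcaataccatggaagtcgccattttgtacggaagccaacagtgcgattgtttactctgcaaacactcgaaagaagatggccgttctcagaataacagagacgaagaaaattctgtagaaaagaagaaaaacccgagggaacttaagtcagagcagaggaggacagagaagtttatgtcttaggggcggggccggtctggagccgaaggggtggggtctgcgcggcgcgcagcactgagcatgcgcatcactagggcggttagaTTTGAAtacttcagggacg
Cenpf: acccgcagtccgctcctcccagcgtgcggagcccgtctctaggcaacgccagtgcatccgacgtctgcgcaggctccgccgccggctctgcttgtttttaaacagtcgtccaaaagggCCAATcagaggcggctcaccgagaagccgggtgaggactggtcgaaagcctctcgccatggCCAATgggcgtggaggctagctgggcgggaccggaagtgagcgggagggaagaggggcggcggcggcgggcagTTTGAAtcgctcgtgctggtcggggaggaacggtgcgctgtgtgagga
Ccnb2: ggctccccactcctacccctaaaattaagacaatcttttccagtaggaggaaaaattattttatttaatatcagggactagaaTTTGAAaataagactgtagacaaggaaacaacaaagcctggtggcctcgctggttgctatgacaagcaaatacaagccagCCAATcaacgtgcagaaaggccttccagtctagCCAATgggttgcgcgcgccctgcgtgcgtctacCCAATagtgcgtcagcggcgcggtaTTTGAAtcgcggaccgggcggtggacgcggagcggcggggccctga
Pttg1: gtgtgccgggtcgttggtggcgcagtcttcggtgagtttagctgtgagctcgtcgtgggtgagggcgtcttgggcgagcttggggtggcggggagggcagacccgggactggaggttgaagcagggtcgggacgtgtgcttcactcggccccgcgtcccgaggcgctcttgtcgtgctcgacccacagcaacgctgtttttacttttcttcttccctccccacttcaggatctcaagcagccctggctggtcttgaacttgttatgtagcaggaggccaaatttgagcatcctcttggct

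*Mki67* held a pair of CHR matches, 116 and 98 bases before the start, downstream of 3 CCAAT boxes. *Knl1* had 1 CHR match, 31 bases after the start, and no CCAAT box, and *Cenpf* had 1, 2 bases after the start, with 2 CCAAT boxes upstream. In *Ccnb2*, 3 CCAAT boxes preceded a CHR 4 bases after the start, and another CHR lay 167 bases before it. No match to either was in the window of *Pttg1*. In GENCODE M21, however, this gene and its largest transcript Pttg1-202 start at chr11:43426251, upstream of the whole window. The sequence before that start was not searched.

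Over all members, 38 of 50 promoters (76%) held a CHR match, whereas 17.9% of the 32851 promoters of the genome did. A CCAAT box was in 36 (72%) against 37.4% of all promoters, and both elements were in 32 (64%) against 6.95%. The E-box was in 3 (6%) against 7.15% and the E2F site in 1 (2%) against 4.6%. Counted by gene, 74.5% of the 47 members and 15.5% of the 10886 tested genes with a window held a CHR match. For the CCAAT box the shares were 70.2% and 42.9%, for the E-box 6.38% and 11%, and for the E2F site 2.13% and 9.12%. The matches also lay close to the start. Of 49 CHR matches in member promoters, 36 (73.5%) were within 50 bases of it, against 25.3% of those in all promoters, a window chosen after the positions were seen. A CCAAT box and a CHR can share 1 base where they adjoin, and a match is a description of the sequence and not a bound site.

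The log2 fold changes of the 35 members with a CHR match ran from −1.59 to −0.36, with a median of −0.68 and 5 genes past the threshold. Those of the 12 without one in the windows searched, *Pttg1* among them, ran from −1.10 to 0.48, with a median of −0.79 and 4 genes past it, namely *Birc5*, *Nuf2*, *Nusap1* and *Cenpe*. For the 9 genes with no window it was −0.73, with none past it. The medians are given as a description, without a test.

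**Figure D4:**
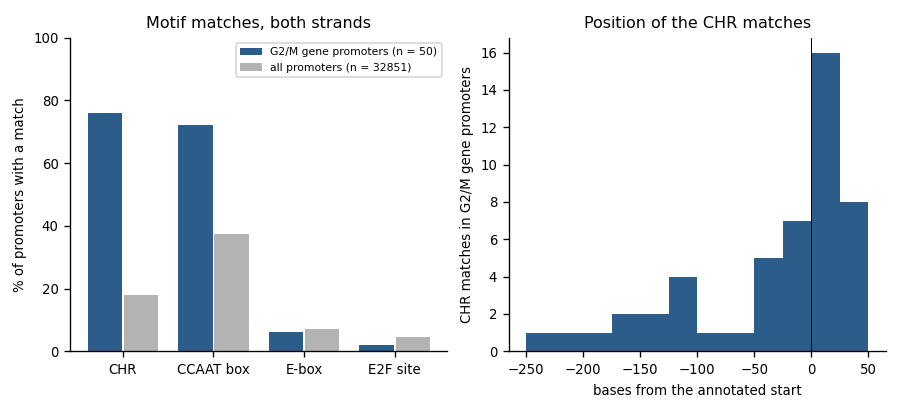
Left, share of promoter windows with a match to each element (y axis, %), for the 50 windows of the G2/M genes (blue) and the 32851 of all genes (grey). Right, number of CHR matches in the G2/M gene windows by distance of their first base from the annotated start (x axis, bases), which gather around 0.

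To set the 56 genes beside other genes of mitosis, 130 further genes were listed by name and role. All 130 were tested, 3 fell past the threshold, and none rose. With a limit of 0.05 on the adjusted p alone, 30 were lower and 1 was higher. The median log2 fold change was −0.32 and the sum of their CPM was 82.9% of the control mean. The 3 were *Cks1b*, which encodes a subunit of Cdk complexes, the kinase gene *Pbk* and *Depdc1b*. *Cks1b* was at 152, 145 and 141 CPM in *Myc* wt/wt and 74.8, 68.1 and 91.1 CPM in *Myc* fl/fl, a log2 fold change of −0.92 ± 0.14 (SE) with an adjusted p of 0.00689 in edgeR. *Depdc1b* was at 45.7, 43.1 and 41.7 CPM in *Myc* wt/wt and 22.4, 19 and 24.7 CPM in *Myc* fl/fl, a log2 fold change of −0.99 ± 0.16 (SE) with an adjusted p of 0.00781 in edgeR. *Pbk* was at 86.1, 76.9 and 79.9 CPM in *Myc* wt/wt and 45.8, 45.3 and 49.4 CPM in *Myc* fl/fl, a log2 fold change of −0.79 ± 0.13 (SE) with an adjusted p of 0.0092 in edgeR. In each of the 3 the groups were apart. Over the 130 genes, 10 were called lower without the replicate block, and the 30 at an adjusted p below 0.05 came to 6, 8 and 32 without the libraries numbered 1, 2 and 4. Without the libraries numbered 1 the adjusted p-values of *Cks1b*, *Depdc1b* and *Pbk* were 0.0311, 0.0325 and 0.0409, above the limit of 0.01, and without those numbered 2 they were 0.0305, 0.0319 and 0.0312.

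Within these 130, the medians of the sets were as follows, without a test of their differences. Other centromere and kinetochore genes (−0.52, 8 of 33 lower at an adjusted p below 0.05), other checkpoint and entry regulators (−0.51, 6 of 17) and other spindle and cytokinesis genes (−0.52, 10 of 34) were nearest to the 56. Cohesin and its regulators (−0.25, 4 of 15) and the APC/C and its regulators (−0.15, 1 of 17) were nearer to 0, and the 3 other condensin II subunits had a median of −0.31 with 0 of 3. The lowest adjusted p-values in these sets were those of *Sgo2a*, which protects centromeric cohesin (log2 fold change −0.94, adjusted p = 0.0121), and *Fbxo5*, an inhibitor of the APC/C (log2 fold change −0.86, adjusted p = 0.0116), both named after their values were seen. The 11 subunits of DREAM and MuvB had a median of −0.15, and 8 of them were below 0. At an adjusted p below 0.05, 1 was lower, *Tfdp1*, which encodes the dimerization partner of E2F (log2 fold change −0.52, adjusted p = 0.0473), and 1 was higher. The latter, *Rbl2*, which encodes the p130 pocket protein of the repressing complex, was at 382, 346 and 315 CPM in *Myc* wt/wt and 528, 479 and 461 CPM in *Myc* fl/fl (log2 fold change 0.50, adjusted p = 0.0468). It was the 1 gene of the 130 higher at this limit, and both were named after their values were seen. The adjusted p of *Rbl2* was 0.0968, 0.126 and 0.239 without the libraries numbered 1, 2 and 4.

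DNA replication genes, which are made earlier in the cycle, were set beside the G2/M genes as well. All 41 had log2 fold changes below 0, with a median of −0.56, 17 were lower at an adjusted p below 0.05 and 1 passed the threshold. The 17 came to 2, 3 and 18 without the libraries numbered 1, 2 and 4, and without the replicate block 3 passed the threshold. The 1 gene past the threshold in the blocked fit was *Dut*, the dUTPase gene, at 159.7, 117 and 114 CPM in *Myc* wt/wt and 72.6, 68.9 and 72.5 CPM in *Myc* fl/fl, a log2 fold change of −0.85 ± 0.15 (SE) with an adjusted p of 0.00907 in edgeR. The adjusted p of *Dut* was 0.0402, 0.0244 and 0.0115 without the libraries numbered 1, 2 and 4, above the limit in each. The sum of the 41 genes was 69.7% of the control mean, 7042, 5965 and 5399 CPM in *Myc* wt/wt and 4164, 4145 and 4513 CPM in *Myc* fl/fl cells, without overlap. The difference between the G2/M and the replication genes was not tested.

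**Figure D5:**
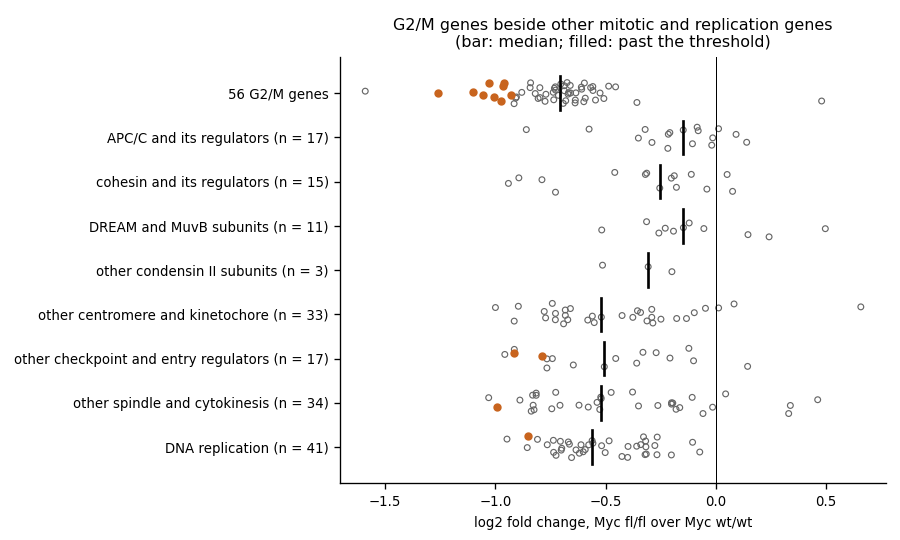
Fitted log2 fold change (x axis) of the 56 G2/M genes, of 7 further sets of mitotic genes and of DNA replication genes; each point is a gene, filled where it passed the threshold, points are spread vertically for legibility, and bars are medians. The G2/M genes lie furthest to the left, and the APC/C, cohesin, DREAM and MuvB and condensin II sets lie nearest to 0.

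Markers of other BM cells differed between the same libraries, and some of these cells divide as well. The gene named for each list is the one with the highest mean CPM over the 6 libraries. The 9 basophil and mast cell markers summed to 15.1 to 18.6 CPM in *Myc* wt/wt and 122 to 335 CPM in *Myc* fl/fl cells, with 8 past the threshold. *Prss34* was at 1.56, 3.0 and 3.92 CPM in *Myc* wt/wt and 149.6, 178 and 56.2 CPM in *Myc* fl/fl. All 7 myeloid progenitor markers had log2 fold changes above 0 and 6 passed, and their sum was 167 to 209 and 710.5 to 1013 CPM, with *Mpo* at 71.2, 90.9 and 104 CPM in *Myc* wt/wt and 468, 444 and 717 CPM in *Myc* fl/fl. Erythroid markers summed to 44 to 280.0 and 545 to 1151 CPM, with 2 of 9 past the threshold and all 9 higher at an adjusted p below 0.05, and *Hba-a2* was at 19.2, 15.1 and 102 CPM in *Myc* wt/wt and 392, 441 and 194 CPM in *Myc* fl/fl. In these 3 lists the levels were higher in *Myc* fl/fl cells, where the mitotic genes were lower. The share of all genes higher at an adjusted p below 0.05 was not computed. The numbers past the threshold in the basophil and mast cell, myeloid progenitor and erythroid lists were 3, 4 and 2 without the libraries numbered 1, 3, 5 and 2 without those numbered 2, and 8, 6 and 7 without those numbered 4. Without the replicate block they were 8, 6 and 4, and at an adjusted p below 0.05 the 9 erythroid markers came to 4, 8 and 8 without the libraries numbered 1, 2 and 4. Of all genes, 0.312, 0.561 and 1.04% were called higher past the threshold in those 3 fits, and 1.31% without the replicate block.

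Monocyte markers were at 1451 to 1749 and 1752 to 2094 CPM, of which *Ccr2* made up 1561 ± 154 and 1855 ± 176 CPM (SD, n = 3 each), and 2 of the 6 tested passed, both higher, against 0, 1 and 2 without the libraries numbered 1, 2 and 4 and 1 without the replicate block. Of 8 neutrophil and 7 B cell markers, 7 and 5 had enough counts for a test. Neutrophil markers (*S100a8*) were at 4.03 to 16 and 13.3 to 30.1 CPM and B cell markers (*Cd79b*) at 4.55 to 8.64 and 11.5 to 15.6 CPM, with none past the threshold. At an adjusted p below 0.05, 3 of the 7 neutrophil markers were higher and none of the B cell markers, and the 3 came to 0 without the replicate block, 0 without the libraries numbered 1 or 2 and 2 without those numbered 4, where 1 passed the threshold. T cell markers (*Cd3g*) were at 293 to 558 and 305 to 402 CPM with none past it, and the 13 NK cell markers (*Nkg7*) at 16287 to 16462 and 17885 to 18515 CPM, also with none. No marker tested was at 0 in every library. Mature NK cell markers (*Prdm1*) were at 163 to 252 and 189 to 244 CPM, of which 1 of 6 passed. This was *S1pr5*, at 50.7, 43 and 20.8 CPM in *Myc* wt/wt and 18.3, 21.7 and 9.68 CPM in *Myc* fl/fl, with overlapping groups and a log2 fold change of −1.18 (adjusted p = 0.0054), and its adjusted p in edgeR was 0.0622 without the replicate block and 0.0263 and 0.0124 without the libraries numbered 1 and 2. *Myc* fl/fl library 4, with the most counts on the mitotic genes of the 3, also had the highest myeloid progenitor and the lowest basophil and erythroid sums of the 3. The part of these other cells in the levels of the mitotic genes was not tested.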

How the data were processed

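RNA was sequenced single end (100 bases) by the authors after poly(A) selection. For every transcript and library the authors deposited an estimated count, which is an expected count and not normalized, a TPM value and an effective length. The methods name Salmon and GRCh38, whereas the identifiers are those of mouse and the columns those of kallisto. Which effective length correction was applied is not given in the sources used here. Effective length was used for offsets in 1 alternative.

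Estimated counts were summed by symbol through GENCODE M21 (GRCm38), which held 100239 of 100583 transcripts. Unmatched transcripts held 0.129 to 0.169% of the counts. Sums were rounded, filtered with filterByExpr defaults (15474 genes), normalized by TMM and tested with edgeR 4.0.16 (quasi-likelihood, R 4.3.3), blocking on the replicate number since the study names its analysis paired. Adjusted p-values are Benjamini-Hochberg values over all genes tested. DESeq2 1.42.0 and limma 3.58.1 were alternatives, and scripts were tested on simulated data. In the simulation, some genes were set to a log2 fold change of −1. Of these, the blocked edgeR fit called 46 of 188, DESeq2 53 of 200 and limma-trend 40 of 200. CPM values of genes are normalized by TMM, and those of transcripts are counts per Mio of library total without TMM. TPM values are those deposited by the authors, summed by gene.

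The members and lists were chosen with earlier results of these data known. Members named with their values by rule are those past the threshold, the 12 with the smallest p, the one of highest TPM in each role and any above 0. Of the other mitotic genes, those past the threshold and the 3 with the smallest p were named, and of each marker list the gene of highest mean CPM over all libraries. Values of *Foxm1*, *Mad2l1*, *Bub1*, *Aurkb*, *Kifc1*, *Cdc20* and *Espl1*, and of the other genes *Sgo2a*, *Fbxo5*, *Rbl2*, *Tfdp1*, *Dut* and *S1pr5*, are given outside this rule and were chosen after they were seen. Genes given by fold change and p alone complete the account of the 56. Alternatives covered the block, each library left out, the test, normalization, filters and limits. Replicates differed by a chi-square per degree of freedom of 39.2 to 99.0 and are separate libraries.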

Additional observations from a re-analysis of the deposited data

How the results depend on the processing

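The direction held in every setting, with 55 of the 56 genes below 0 in each and a median log2 fold change between −0.95 and −0.58 (spread of the 3 numbered pairs 0.30, SD), but the count past the threshold moved. Against 9 lower in the fit described, there were 36 in DESeq2, 27 with no filter on low counts, 35 at an adjusted p below 0.05 with no fold limit, 1 with library size only and 0 with offsets from effective lengths. Over fits that left out 1 replicate number or 1 library, the count ran from 0 to 18. In DESeq2, with no filter, with library size only and with effective lengths, 3.54%, 1.83%, 0.162% and 0.0517% of all genes were lower. None of the 56 was called higher in any setting. The cause of these moves was not tested. *Myc* ran from −1.62 to −1.30 (log2) over the fits that left out a replicate, lost its call without replicate 1 (adjusted p = 0.0105, edgeR) and kept it in the other settings.

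Over the 21 genes named by the rule and all alternatives, 399 results were recomputed, of which 277 kept their direction and side of the threshold, 92 lost the call, 30 gained it and 0 reversed.

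Without the replicate block, 12 of the 56 were lower, 7 of them shared with the 9 of the blocked fit, and 184 and 203 of all genes were called lower and higher against 135 and 198. Whether equal numbers pair mice was checked by correlating, over 15474 genes, deviations from the genotype means. The correlations of libraries with equal numbers were −0.012, −0.024 and 0.055, below the limit of 0.1, which does not show the mice to be paired by number. Depth limits mainly *Myc* wt/wt library 1, with 11362 genes at 10 counts or more against 15286 to 15705 in the others. With 3 libraries per genotype, a gene that missed the threshold is not shown to be the same in both genotypes.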
